A study of Mus musculus with 9 samples.

Results

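Type I interferon-stimulated genes are the genes that cells switch on when interferon alpha or beta binds its receptor at the cell surface. The receptor activates the kinases JAK1 and TYK2, and a complex with STAT2 and IRF9 binds a promoter sequence called the interferon-stimulated response element (ISRE). The products sense foreign nucleic acid, block viral replication, and feed back on the pathway itself. In the arterial wall they are made by smooth muscle, endothelial cells, fibroblasts and leukocytes, so a whole-tissue level does not name its source. The genes described here are 39 such genes named by symbol. Of these, 38 have a row among the 18830 protein-coding genes of the count files, matched by Entrez identifier. Mx2 is annotated as a transcribed pseudogene in RefSeq GRCm38.p6 and was not analysed here. All 38 genes passed the filter on low counts, as did 14741 genes in all.

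RNA of suprarenal abdominal aortas was sequenced in 9 libraries, all from ApoE knockout mice, which lack apolipoprotein E and are prone to atherosclerosis. The title of every sample begins with the word Muscle. The 3 sham control libraries were compared with 3 libraries of mice given angiotensin II (Ang II) by osmotic mini pump for 14 days and 3 for 28 days, at 1000 ng/kg/min. Ang II is a vasoconstrictor peptide, and its infusion in this strain is a model of abdominal aortic aneurysm. The sex and age of the mice, the day at which sham aortas were taken, and whether a library is 1 mouse or a pool are stated neither in the labels nor in the files. Library totals ranged from 9609690 to 14923936 expected counts, and the smallest count of any of the 38 genes in a library was 9.0. Levels are in CPM, each gene's count scaled to the size of its library after normalisation by the trimmed mean of M values (TMM), and values are given in the order of replicates 1 to 3. Gene positions are whole-gene spans in RefSeq GRCm38.p6, and counts are over whole genes, not single exons.

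The libraries differed in what tissue they held besides the aortic wall. Smooth muscle markers were present in all 9 (8 genes, 2222 to 31911 CPM in sum). Reads of Apoe itself were counted in all 9 libraries, at 22.5 to 648 CPM; gene counts do not tell whether these reads lie in the part that the knockout removed, so they do not check the genotype. Nerve and ganglion markers were highest in sham replicate 2, 14-day replicate 1 and 28-day replicate 2, and skeletal muscle markers in 28-day replicates 1 and 2. These are called the nerve-rich and muscle-rich libraries below.

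The promoters of these genes carried the ISRE more often than promoters at large. RefSeq promoter windows, from 250 bases before to 50 after each transcription start, were at hand for 30 of the 38 genes. The ISRE core, searched on both strands as GAAA, any 2 bases, and GAAA again, was found in 13 of the 30 (43.3%). It was found in 3.99% of all 27025 genes with such windows and in 3.90% of the 11665 of them that were tested. Of the 21 matches, 11 began within 100 bases before the start. The interferon gamma-activated site TTCNNNGAA, a sequence equal to its own reverse complement, was found in 23.3% of the 30 genes against 9.55% of all genes. The 10-base NF-kB consensus was also in 23.3%, against 9.55% of all genes and 12.7% of those tested. A match is a description of the letters and does not show binding.

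The 200 bases before the start of 7 of the genes are shown (RefSeq GRCm38.p6, 5′ to 3′ on the gene's strand). Each of these stretches holds at least 1 core of the element that the complex with STAT2 and IRF9 binds. Phf11b, Rsad2 and Trim30a also hold a match there and are not shown. Capitals mark the ISRE core on either strand, and runs of capitals longer than the motif are overlapping matches.
Isg15 (chr4:156200819-156201018, minus strand): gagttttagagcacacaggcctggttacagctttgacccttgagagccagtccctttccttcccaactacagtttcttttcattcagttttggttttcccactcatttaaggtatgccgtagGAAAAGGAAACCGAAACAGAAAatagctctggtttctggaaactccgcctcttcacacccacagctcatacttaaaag
Oas1a (chr5:120907526-120907725, minus strand): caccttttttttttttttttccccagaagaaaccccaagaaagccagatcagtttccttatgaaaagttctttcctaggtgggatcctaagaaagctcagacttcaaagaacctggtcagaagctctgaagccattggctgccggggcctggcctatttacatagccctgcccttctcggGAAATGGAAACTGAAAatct
Oas3 (chr5:120777660-120777859, minus strand): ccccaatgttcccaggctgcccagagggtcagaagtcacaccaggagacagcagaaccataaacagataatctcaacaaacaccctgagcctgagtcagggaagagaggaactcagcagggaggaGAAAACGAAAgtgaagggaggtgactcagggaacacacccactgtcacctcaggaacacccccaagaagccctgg
Ifit1 (chr19:34640689-34640888, plus strand): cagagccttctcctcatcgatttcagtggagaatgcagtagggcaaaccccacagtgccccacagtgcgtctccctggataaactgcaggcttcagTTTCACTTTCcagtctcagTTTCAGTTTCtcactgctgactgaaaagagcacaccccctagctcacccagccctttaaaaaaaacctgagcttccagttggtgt
Ifit3 (chr19:34583329-34583528, plus strand): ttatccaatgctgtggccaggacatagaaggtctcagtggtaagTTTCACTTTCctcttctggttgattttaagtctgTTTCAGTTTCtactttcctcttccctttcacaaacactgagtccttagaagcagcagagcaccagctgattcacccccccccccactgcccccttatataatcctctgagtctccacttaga
Bst2 (chr8:71537473-71537672, minus strand): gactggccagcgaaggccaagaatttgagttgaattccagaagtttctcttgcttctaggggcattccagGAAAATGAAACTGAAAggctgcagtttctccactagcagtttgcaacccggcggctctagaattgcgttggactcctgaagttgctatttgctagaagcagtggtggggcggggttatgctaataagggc
Ddx60 (chr8:61927887-61928086, plus strand): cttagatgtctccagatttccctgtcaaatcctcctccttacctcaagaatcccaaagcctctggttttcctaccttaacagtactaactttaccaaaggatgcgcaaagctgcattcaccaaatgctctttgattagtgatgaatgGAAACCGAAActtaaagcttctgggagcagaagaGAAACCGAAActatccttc
In Isg15 3 overlapping matches began 78, 72 and 66 bases before the start. Oas1a had 2 overlapping matches directly at the start, 20 and 14 bases before it. Ifit1 and Ifit3, which lie in 1 cluster on chromosome 19, each had 2 matches on the opposite strand, and both genes held the same pair of letters, GAAAGTGAAA and GAAACTGAAA. Irf7, Irf9, Rnf213 and Samhd1 were among the 17 genes whose windows held no match.

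**Figure D1:**
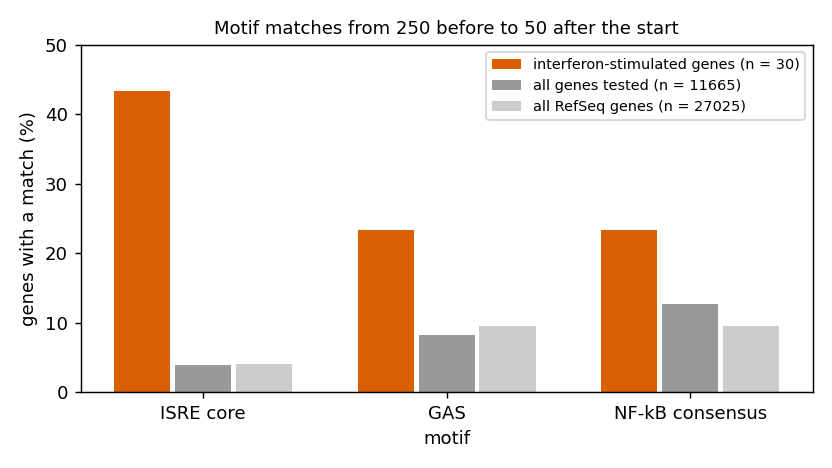
Share of genes (y axis, percent) with at least 1 match to each of 3 motifs (x axis) in windows from 250 bases before to 50 after the transcription start. Bars stand for the 30 interferon-stimulated genes with a window, the 11665 genes tested and all 27025 RefSeq genes with a window, and the ISRE core shows 43.3% against 3.90% and 3.99%.

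The first question was how these genes stand in the aorta at each time of Ang II infusion. They were higher at both times in most libraries. At 14 days the fitted fold change was above 0 for 37 of the 38 genes (45.2% of all genes tested), and at 28 days for 38 of 38 (40.7%). Every 14-day library lay above every sham library for 30 of the 38 genes (12.6% of all genes), and every 28-day library did for 29 (12.2%). No gene lay below sham in that way at either time, where 13.5% and 9.46% of all genes did. A fold change of at least 2 was fitted for 25 of the 38 genes at 14 days (12% of all genes) and for 23 at 28 days (9.89%). The median log2 fold change was 1.24 at 14 days and 1.09 at 28 days, where the median of all genes tested was -0.07 and -0.08.

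No single gene passed the test over all genes. edgeR's quasi-likelihood test called 0 of 38 at either time at an adjusted p under 0.05, as it called 0% of all 14741 genes. The lowest adjusted p among the 38 was 0.112 at 14 days and 0.203 at 28 days, each also the lowest of the whole comparison. At an unadjusted p under 0.05, 31 of the 38 were higher at 14 days (13.1% of all genes) and 28 at 28 days (7.96%), and 0 were lower (10.4% and 5.89% of all genes). With the same counts DESeq2 called 28 of the 38 higher at 14 days (8.65% of all genes) and 22 at 28 days (3.91%), none lower, where in either direction it called 13.4% and 6.62% of all genes. Of the 38, limma-voom called 0 at each time (0% of all genes). Both comparisons share the 3 sham libraries, so their results are not independent.

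**Figure D2:**
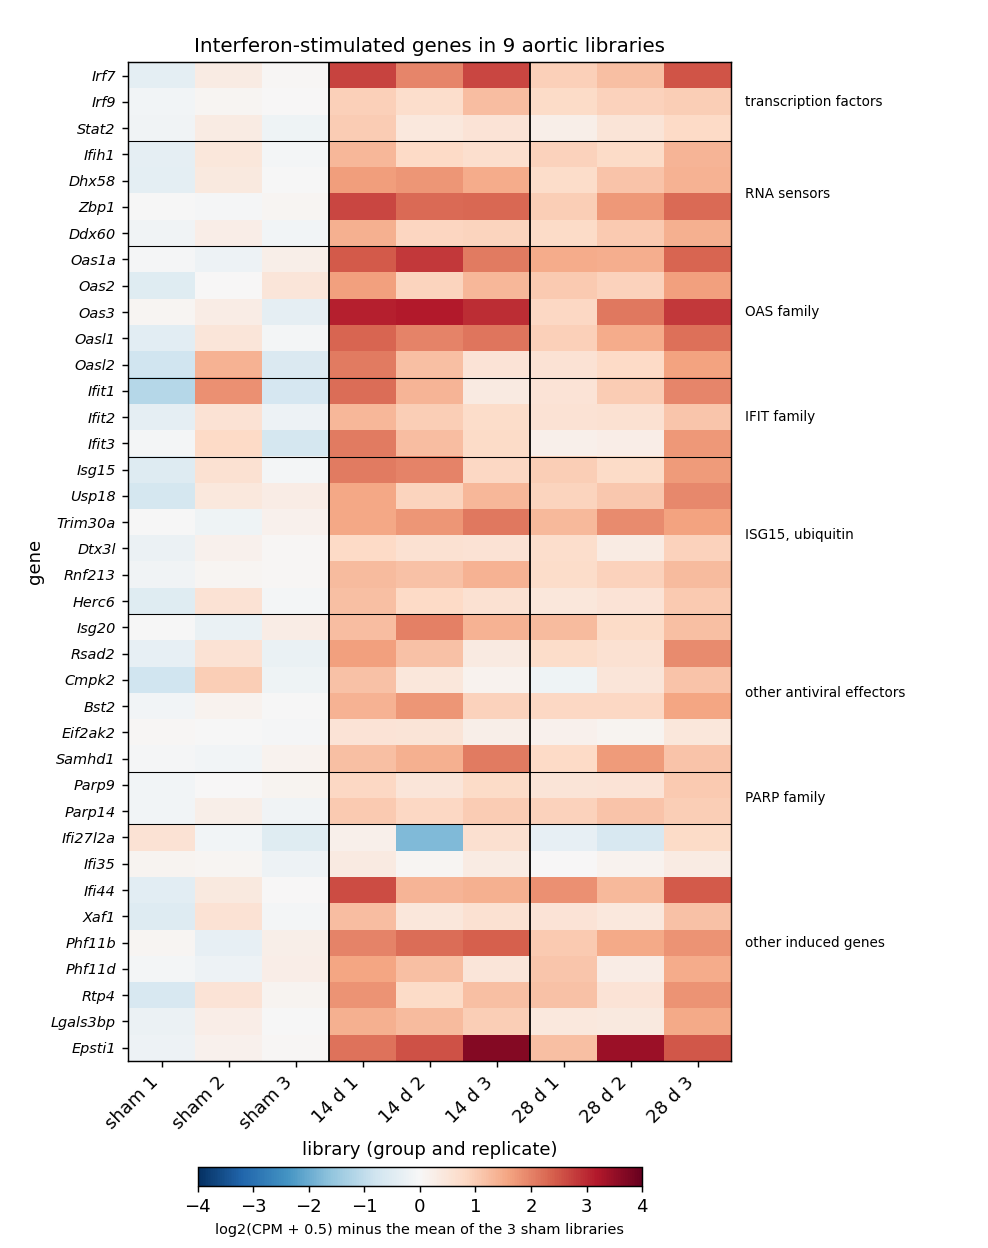
Each row is 1 of the 38 genes, grouped by role, and each column 1 of the 9 libraries. The colour is log2(CPM + 0.5) minus the mean of the 3 sham libraries for that gene. The Ang II columns are red for most genes, while Ifit1, Oasl2 and Cmpk2 are also red in sham replicate 2, and Ifi27l2a shows no common direction.

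**Figure D3:**
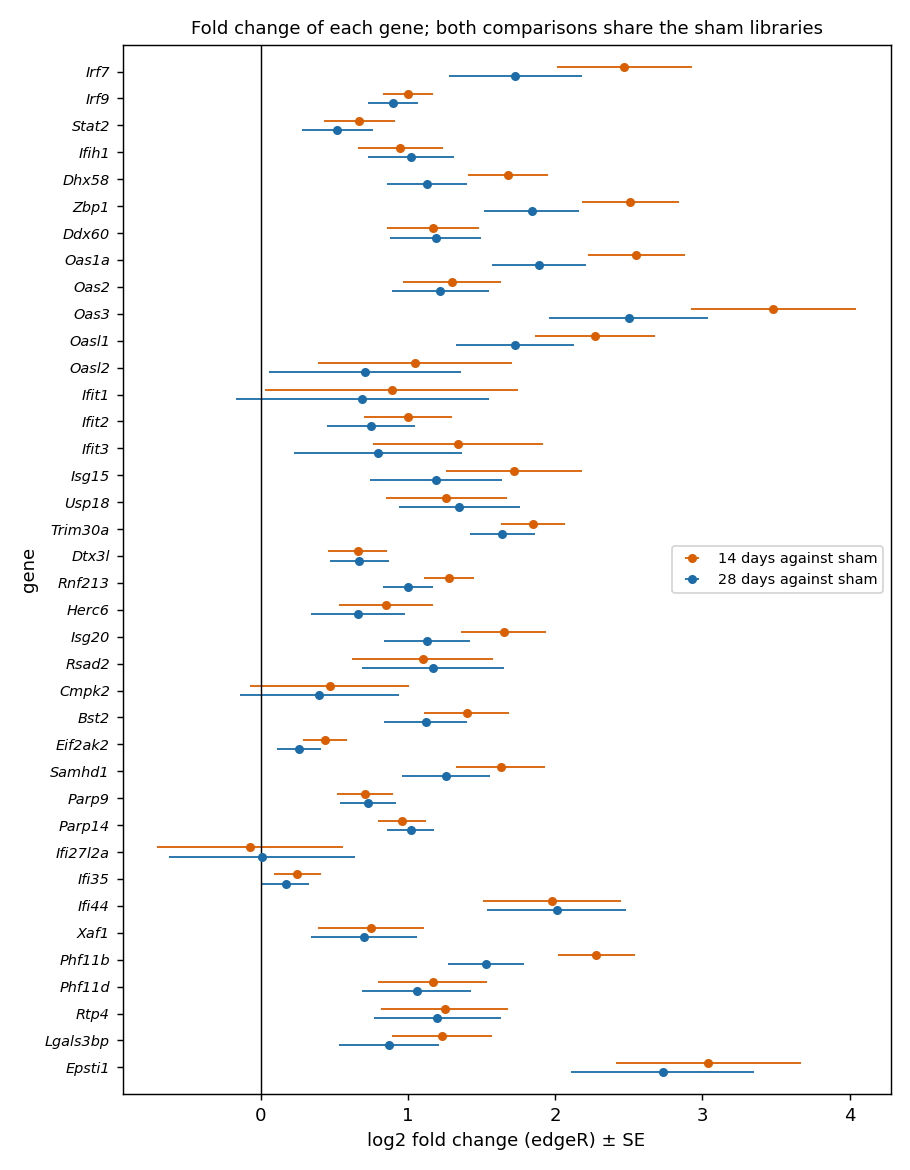
Log2 fold changes (x axis) with their SE for each of the 38 genes (y axis) at 14 days and 28 days against the same 3 sham libraries. The points lie to the right of 0 for 37 genes at 14 days and 38 at 28 days, with the widest error bars for Ifit1, Oasl2, Epsti1, Ifi27l2a and Ifit3.

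The transcription factors of the response were all higher than sham on average. Irf7, which drives the second wave of interferon production, had 16.2, 27.04 and 22.3 CPM across the sham libraries, 142, 83.5 and 138 across the 14-day ones and 41.8, 50.2 and 126 across the 28-day ones (Entrez 54123, chromosome 7, 141263183 to 141266499). Both Ang II groups lay above sham without overlap. The 28-day replicate 3 was within the range of the 14-day libraries while 28-day replicates 1 and 2 stood lower. The log2 fold changes of 2.47 ± 0.46 at 14 days (edgeR adjusted p = 0.117) and 1.73 ± 0.45 at 28 days (adjusted p = 0.215) followed from these values. Stat2, the signal transducer that joins IRF9 in the ISRE-binding complex, differed less. It had 38.7, 53.6 and 38 CPM across the sham libraries, 88.1, 56.98 and 62.4 across the 14-day ones and 50.2, 60.98 and 75.2 across the 28-day ones. Its highest sham library, replicate 2, lay above the lowest 28-day library, and the log2 fold changes were 0.67 ± 0.24 at 14 days and 0.52 ± 0.24 at 28 days. Irf9, the DNA-binding part of the same complex, went from a mean of 29.4 ± 2.09 CPM in sham to 58.7 ± 10.9 CPM at 14 days. At 28 days its mean was 54.8 ± 4.58 CPM, and both Ang II groups lay above sham without overlap.

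Sensors of RNA and DNA lay above sham without overlap for all 4 genes at both times (12.6% of all genes at 14 days and 12.2% at 28 days). Zbp1, which binds nucleic acid in the Z form and can start necroptosis, had one of the smallest spreads in sham. It had 5.97, 5.94 and 6.41 CPM across the sham libraries, 41.5, 31.6 and 31.6 across the 14-day ones and 12.6, 21.4 and 31.4 across the 28-day ones (Entrez 58203, chromosome 2, 173206612 to 173218959). Its log2 fold changes of 2.51 ± 0.33 at 14 days (edgeR adjusted p = 0.112) and 1.84 ± 0.32 at 28 days (adjusted p = 0.203) were among the largest of the set. Ifih1, which encodes the RNA sensor MDA5, had 11.5, 20.8 and 14.2 CPM across the sham libraries, 38.8, 26.3 and 24.5 across the 14-day ones and 28.9, 26.01 and 39.2 across the 28-day ones, and its log2 fold changes were 0.95 ± 0.29 at 14 days and 1.02 ± 0.29 at 28 days. Dhx58, which encodes LGP2, a regulator of RIG-I and MDA5, had log2 fold changes of 1.68 ± 0.27 at 14 days and 1.13 ± 0.27 at 28 days. Those of the helicase gene Ddx60 were 1.17 ± 0.31 at 14 days and 1.19 ± 0.31 at 28 days.

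The OAS family make 2'-5' oligoadenylates, which activate the ribonuclease RNase L, though not every member makes them. Oas1a had 6.71, 5.87 and 8.28 CPM across the sham libraries, 39.5, 52.2 and 30.4 across the 14-day ones and 20.4, 19.7 and 36.98 across the 28-day ones (Entrez 246730, chromosome 5, 120896256 to 120907544). No sham library came near the Ang II libraries, and the log2 fold changes of 2.55 ± 0.33 at 14 days (edgeR adjusted p = 0.112) and 1.89 ± 0.32 at 28 days (adjusted p = 0.203) ranked among the 4 smallest p of the set at both times. Oas3 was the least expressed of the 38 per length in sham, at 0.172 CPM per kb of exon, and it had the largest log2 fold changes of the set at 14 days, 3.48 ± 0.56 at 14 days and 2.50 ± 0.54 at 28 days. Its levels were 1.28, 1.57 and 0.801 CPM across the sham libraries, 13.9, 14.6 and 12.7 across the 14-day ones and 2.52, 6.81 and 11.5 across the 28-day ones. At 28 days they ran from replicate 1, the nearest to sham, to replicate 3, still below every 14-day library. Oas2 and Oasl1 had log2 fold changes of 1.3 ± 0.33 and 2.27 ± 0.41 at 14 days. At 28 days these were 1.22 ± 0.33 and 1.73 ± 0.40, and both Ang II groups lay above sham without overlap. Oasl2 was the exception of the family. It had 17.9, 83.2 and 21.00 CPM across the sham libraries, 134, 73.3 and 46.8 across the 14-day ones and 47.7, 54.8 and 96.8 across the 28-day ones, so that sham replicate 2 exceeded 2 of the 3 libraries at each later time. Its log2 fold changes were 1.05 ± 0.66 at 14 days and 0.71 ± 0.65 at 28 days, and 2.12 and 1.77 without sham replicate 2.

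The IFIT genes, whose products bind viral RNA at its 5′ end, repeated that pattern. Ifit1 had 4.37, 37.98 and 6.23 CPM across the sham libraries, 49.96, 27.3 and 13.2 across the 14-day ones and 15.4, 21.3 and 41.7 across the 28-day ones. Sham replicate 2 was above all but 2 of the 6 Ang II libraries, and the log2 fold changes of 0.89 ± 0.86 at 14 days and 0.69 ± 0.86 at 28 days were about as large as their SE. Without sham replicate 2 they were 2.50 and 2.30 (edgeR adjusted p = 0.178 and 0.239). Ifit3 had 23.97, 44.8 and 15.5 CPM across the sham libraries, 109, 60.5 and 43.99 across the 14-day ones and 29.8, 30.9 and 85.95 across the 28-day ones, with log2 fold changes of 1.34 ± 0.58 at 14 days and 0.80 ± 0.57 at 28 days, and 1.85 and 1.31 without sham replicate 2. Ifit2 had log2 fold changes of 1.00 ± 0.30 at 14 days and 0.75 ± 0.30 at 28 days. Both of its Ang II groups lay above sham without overlap.

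**Figure D4:**
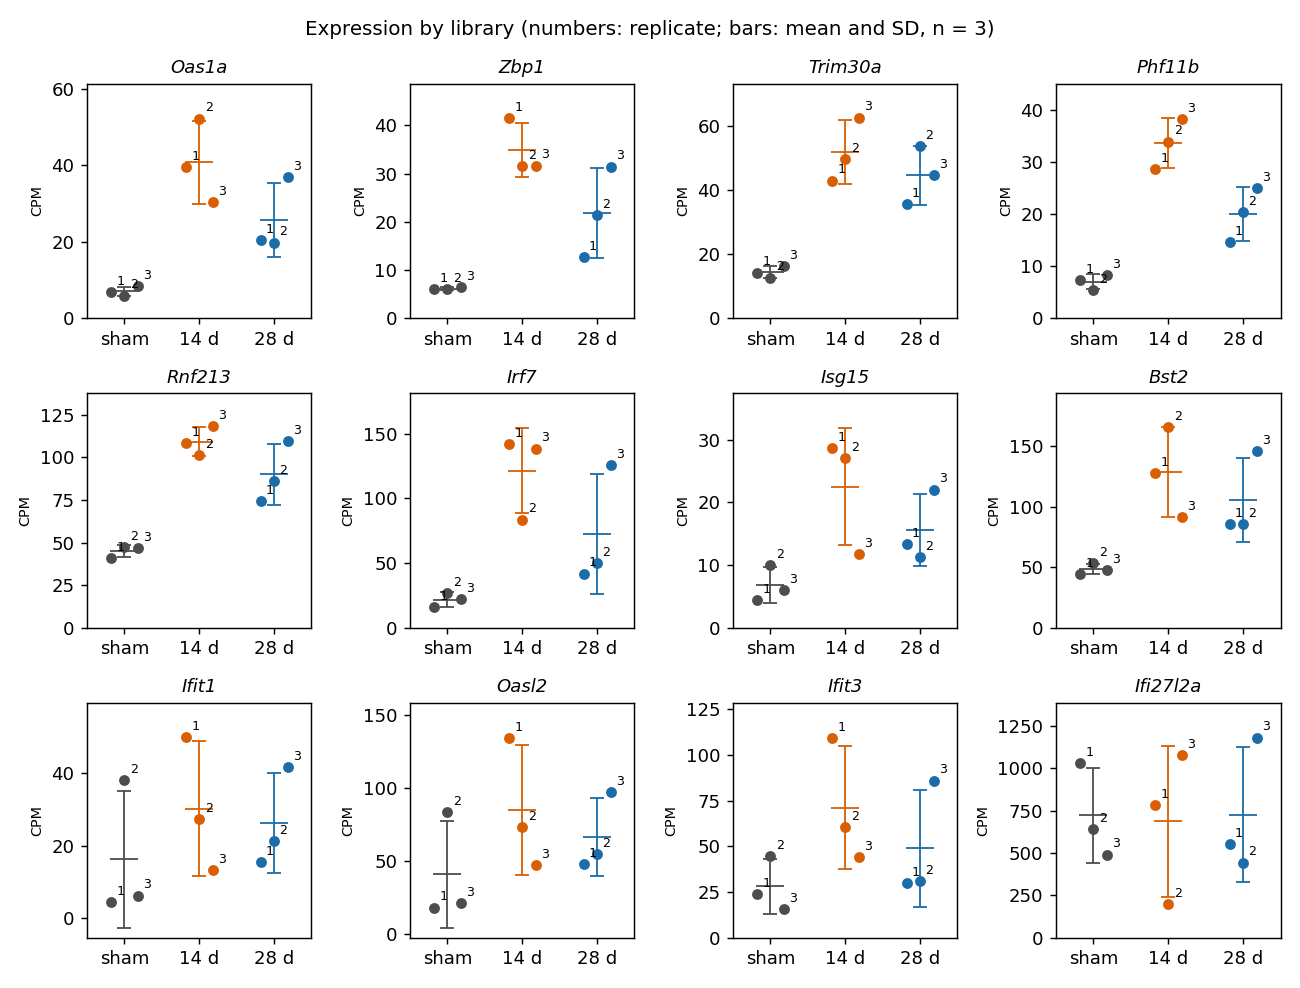
CPM (y axis, linear) of 12 of the genes in each library by group (x axis), with replicate numbers, the mean and the SD (n = 3). Sham libraries lie below the Ang II libraries for the first 8 genes, while sham replicate 2 is high for Ifit1, Oasl2 and Ifit3, and Ifi27l2a spreads widely in every group.

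Genes of the ISG15 and ubiquitin systems were higher at 14 days without overlap in 6 of 6 cases (12.6% of all genes). Isg15, a ubiquitin-like protein that is attached to other proteins, had 4.37, 10.01 and 6.05 CPM across the sham libraries, 28.6, 27.1 and 11.7 across the 14-day ones and 13.3, 11.3 and 22.02 across the 28-day ones. Sham replicate 2 came close to the lowest library of both later groups, and the log2 fold changes were 1.72 ± 0.46 at 14 days and 1.19 ± 0.45 at 28 days. Usp18, which removes ISG15 and damps receptor signalling, had 3.52, 8.15 and 7.47 CPM across the sham libraries, 18.7, 11.7 and 15.8 across the 14-day ones and 11.5, 13.2 and 24.2 across the 28-day ones, with log2 fold changes of 1.26 ± 0.41 at 14 days and 1.35 ± 0.41 at 28 days. Rnf213, a large ubiquitin ligase known for its link to the cerebral artery disease moyamoya, had a small spread within groups. It had 40.8, 47.5 and 46.6 CPM across the sham libraries, 108, 101 and 118 across the 14-day ones and 74.4, 86.3 and 109.6 across the 28-day ones. The log2 fold changes of 1.28 ± 0.17 at 14 days (edgeR adjusted p = 0.117) and 1.00 ± 0.17 at 28 days (adjusted p = 0.203) had small errors. Trim30a, a tripartite motif protein, had 14.2, 12.6 and 16.2 CPM across the sham libraries, 42.9, 49.7 and 62.5 across the 14-day ones and 35.5, 53.8 and 44.5 across the 28-day ones (Entrez 20128, chromosome 7, 104409025 to 104465193). Its Ang II libraries all lay more than 2-fold above every sham library, and the log2 fold changes of 1.85 ± 0.22 at 14 days (edgeR adjusted p = 0.112) and 1.64 ± 0.22 at 28 days (adjusted p = 0.203) included the smallest p of the set at 28 days. Dtx3l, a ubiquitin ligase that pairs with PARP9, and Herc6, the mouse ligase for ISG15, had log2 fold changes of 0.66 ± 0.20 and 0.85 ± 0.32 at 14 days and 0.67 ± 0.20 and 0.66 ± 0.32 at 28 days. Herc6 overlapped sham at 28 days.

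Effectors that act on the virus or on nucleotides differed in how even they were. Bst2, which encodes tetherin, a membrane protein that holds budding virions, had 44.5, 53.2 and 47.8 CPM across the sham libraries, 128, 166 and 91.5 across the 14-day ones and 85.6, 85.8 and 146 across the 28-day ones. Both Ang II groups lay above sham without overlap, and the log2 fold changes were 1.40 ± 0.29 at 14 days and 1.12 ± 0.28 at 28 days. Isg20, an exonuclease, had 6.50, 5.36 and 8.097 CPM across the sham libraries, 16.3, 28.2 and 18.1 across the 14-day ones and 16.5, 11.5 and 15.9 across the 28-day ones, with log2 fold changes of 1.65 ± 0.29 at 14 days and 1.13 ± 0.29 at 28 days. Samhd1, which breaks down deoxynucleotides, had 58.2, 56.4 and 66.8 CPM across the sham libraries, 139.6, 163.8 and 257.6 across the 14-day ones and 105.3, 195.8 and 132.6 across the 28-day ones, with log2 fold changes of 1.63 ± 0.30 at 14 days and 1.26 ± 0.30 at 28 days. Eif2ak2, which encodes the RNA-activated kinase PKR, had 38.7, 36.98 and 36.4 CPM across the sham libraries, 55.2, 53.2 and 43.6 across the 14-day ones and 42.5, 39.9 and 51.8 across the 28-day ones. Both Ang II groups lay above sham without overlap, but its log2 fold changes were small, 0.44 ± 0.15 at 14 days and 0.26 ± 0.15 at 28 days. Rsad2 and Cmpk2, neighbours on chromosome 12 whose products act in making an antiviral nucleotide, were more uneven. Cmpk2 had 7.99, 28.8 and 12.6 CPM across the sham libraries, 32.9, 19.7 and 15.9 across the 14-day ones and 12.7, 20.4 and 32.3 across the 28-day ones. Sham replicate 2 was again high, and the log2 fold changes were 0.47 ± 0.54 at 14 days and 0.40 ± 0.54 at 28 days, and 1.15 and 1.08 without that library. Those of Rsad2 were 1.10 ± 0.48 at 14 days and 1.17 ± 0.48 at 28 days.

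PARP enzymes of the response had small but even differences. Parp14 had 30.5, 38.8 and 29.7 CPM across the sham libraries, 68.5, 58.3 and 66.3 across the 14-day ones and 62.9, 72.95 and 65.4 across the 28-day ones. The 6 Ang II libraries were closely spaced, and the log2 fold changes of 0.96 ± 0.16 at 14 days (edgeR adjusted p = 0.117) and 1.02 ± 0.16 at 28 days (adjusted p = 0.203) included the second smallest p of the set at 28 days. Parp9 had log2 fold changes of 0.71 ± 0.19 at 14 days and 0.73 ± 0.19 at 28 days. Its gene (chromosome 16, 35938470 to 35972621) overlaps Dtx3l (35926515 to 35939027), so reads of the overlap can belong to either.

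The other genes of the set ranged from the largest difference at 28 days, that of Epsti1, to the smallest at both times, that of Ifi27l2a. Phf11b, a PHD finger gene induced by interferon, had 7.25, 5.36 and 8.19 CPM across the sham libraries, 28.6, 33.9 and 38.2 across the 14-day ones and 14.6, 20.4 and 24.98 across the 28-day ones (Entrez 236451, chromosome 14, 59320964 to 59341388). The log2 fold changes of 2.28 ± 0.26 at 14 days (edgeR adjusted p = 0.112) and 1.53 ± 0.26 at 28 days (adjusted p = 0.203) included the smallest p of the set at 14 days. Epsti1, an interferon-induced gene, had 4.69, 6.22 and 5.78 CPM across the sham libraries, 26.6, 34.4 and 76.9 across the 14-day ones and 13.2, 64.8 and 33.1 across the 28-day ones. Its log2 fold changes were 3.04 ± 0.63 at 14 days and 2.73 ± 0.62 at 28 days, and those of Ifi44 were 1.98 ± 0.47 at 14 days and 2.01 ± 0.47 at 28 days. Lgals3bp, a secreted glycoprotein that binds galectins, had 169, 239.7 and 196 CPM across the sham libraries, 540.1, 482 and 398 across the 14-day ones and 268, 263 and 573 across the 28-day ones, with log2 fold changes of 1.23 ± 0.34 at 14 days and 0.87 ± 0.34 at 28 days. Phf11d, Rtp4 and Xaf1 had log2 fold changes of 1.17 ± 0.37, 1.25 ± 0.43 and 0.75 ± 0.36 in the 14-day comparison, and of 1.06 ± 0.37, 1.20 ± 0.43 and 0.70 ± 0.36 in the 28-day one. Xaf1 overlapped sham at both times. Ifi35 had 41.7, 40.6 and 33.2 CPM across the sham libraries, 49.1, 40.5 and 47.7 across the 14-day ones and 38.97, 42.5 and 48.3 across the 28-day ones, with log2 fold changes of 0.25 ± 0.16 at 14 days and 0.17 ± 0.16 at 28 days. Ifi27l2a was the most abundant of the 38 per length in every group (1559, 1484 and 1567 CPM per kb of exon in sham, at 14 and at 28 days). It had 1032, 643 and 491 CPM across the sham libraries, 785, 200 and 1077 across the 14-day ones and 553, 443 and 1181 across the 28-day ones. No group stood apart, and its log2 fold changes of -0.07 ± 0.63 at 14 days and 0.01 ± 0.63 at 28 days were smaller than their SE.

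Several of these genes belong to families of close copies, and shared reads leave counts that are not whole numbers. Such counts occurred in at least 1 library for 10 of the 38 genes. They occurred in all 9 libraries for Oas1a, Ifit3, Phf11b and Phf11d, and in 8 for Trim30a, so how the reads of these genes are split among their relatives is uncertain.

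The libraries of 1 group were not alike. Of the 38 genes, 26 had their highest sham value in replicate 2 (68.4%, against 32.7% of all genes tested). At 14 days 26 had it in replicate 1 (68.4% against 33.7%), and at 28 days 33 had it in replicate 3 (86.8% against 23.2%). Oasl2, Ifit1, Ifit3 and Cmpk2 were more than 2-fold higher in sham replicate 2 than in the mean of the other sham libraries, as were 12.9% of all genes. Sham replicate 2 and 14-day replicate 1 are both nerve-rich, whereas the nerve-rich 28-day replicate 2 (2744 CPM of nerve and ganglion markers in sum) was highest for 4 of the 38 genes. The 28-day replicate 3, highest for 33, had 1207 CPM of those markers, against 88.0 CPM in replicate 1. The part of nerve tissue in these levels was not tested. Leaving out the 3 nerve-rich libraries still keeps 28-day replicate 3, with its 1207 CPM of those markers. Without the 3 nerve-rich libraries, which leaves 2 in each group, every Ang II library lay above every sham library for 37 of the 38 genes at 14 days (27.1% of all genes in the same libraries) and for 35 at 28 days (21.5%). Fewer libraries make groups without overlap more frequent for every gene, so these counts are read against those shares and not against the shares given for 3 libraries a group.

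Ang II at 28 days was compared with 14 days to ask whether these genes differ between the times. The fitted value was lower at 28 days for 29 of the 38 genes and higher for 9 (44.8% of all genes were higher), with a median log2 fold change of -0.20 against -0.05 for all genes. edgeR called 0 of 38 (0% of all genes; lowest adjusted p of the set 0.77), with 1 lower at an unadjusted p under 0.05 (2.27% of all genes) and 0 higher (3.86%). DESeq2 also called 0, where it called 0.805% of all genes in either direction and 0.594% as higher, and limma-voom called 0. No gene of the set differed by 2-fold upward (3.49% of all genes). Groups did not overlap for 4 genes that were lower at 28 days (5.71% of all genes) and for 0 that were higher (4.35%). Without 28-day replicate 3 they did not overlap for 14 lower genes (7.78% of all genes), and without 14-day replicate 3 for 7 (11.2%). With all libraries the 4 lower ones were Oas3, Dhx58, Zbp1 and Phf11b, at -0.98 ± 0.50, -0.55 ± 0.27, -0.68 ± 0.31 and -0.75 ± 0.25 log2. The split of 29 lower and 9 higher genes was not stable when 1 library was left out. Without 14-day replicate 1, 17 were higher, and without 14-day replicate 2 or without 28-day replicate 3, 1 was. The medians were then -0.05, -0.25 and -0.44, against -0.039, -0.034 and -0.035 for all genes. With both Ang II times averaged against sham, all 6 Ang II libraries lay above all 3 sham libraries for 28 of the 38 genes (8.57% of all genes) and below for 0 (3.97%). The fitted value was above 0 for 37 (42.7%) and at least 2-fold higher for 23 (10.7%). edgeR called 0 of 38 there too (0% of all genes; lowest adjusted p 0.0931), with 31 higher at an unadjusted p under 0.05 (11.4%) and 0 lower (10.1%). DESeq2 called 27 higher (7.92% of all genes, and 12.3% in either direction) and limma-voom 0.

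Upstream of the set, the interferon transcripts that had a row were hardly counted. Of 16 type I and III interferon ligand genes looked for, only 4 had a row. The levels of the rest are not known from these counts. Of the 4 ligand genes with a row, Ifnb1 and Ifnk had a count of 0 in all 9 libraries, which allows at most 0.328 CPM in any of them (3 counts). Ifna12 had 1 count in 1 library, and Ifnz had counts in 2, the higher being 3.80. None passed the filter. Ifng, the type II ligand, had between 0.107 and 0.864 CPM and did not pass either. The subunits of the type I receptor overlapped between groups. Ifnar1 had 69.2, 46.4 and 55.7 CPM across the sham libraries, 58.02, 112 and 95.6 across the 14-day ones and 67.2, 67.9 and 71.5 across the 28-day ones, and Ifnar2 had log2 fold changes of 0.26 ± 0.27 at 14 days and 0.31 ± 0.27 at 28 days. Of 11 receptor, JAK and STAT genes, 4 lay above sham without overlap at 14 days (12.6% of all genes) and 3 at 28 days (12.2%). The smallest p of that list at 14 days belonged to Ifngr1 and Stat3, with log2 fold changes of 0.84 ± 0.26 and 0.47 ± 0.17. Jak1 and Tyk2 had log2 fold changes of 0.82 ± 0.30 and 0.54 ± 0.27 in the 14-day comparison and of 0.63 ± 0.30 and 0.18 ± 0.27 in the 28-day one.

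Many sensors outside the set were higher as well. Of 18 sensors and adaptors, 11 lay above sham without overlap at each time (12.6% and 12.2% of all genes at 14 and 28 days). At 14 days 1 lay below (13.5% of all genes). Ddx58, which encodes RIG-I, had 25.9, 34.1 and 32.3 CPM across the sham libraries, 61.2, 54.5 and 67.1 across the 14-day ones and 49.6, 55.1 and 55.05 across the 28-day ones, and Sting1, the adaptor of DNA sensing, had 14.6, 9.44 and 16.5 CPM across the sham libraries, 42.6, 85.1 and 87.03 across the 14-day ones and 35.03, 71.3 and 33.9 across the 28-day ones. Their log2 fold changes at 14 days were 0.98 ± 0.15 and 2.41 ± 0.42, with edgeR adjusted p of 0.117 for each. Irf3, the factor that these sensors activate, had log2 fold changes of 0.19 ± 0.23 at 14 days and -0.06 ± 0.23 at 28 days, with overlapping groups. Among 8 negative regulators 3 lay above sham without overlap at each time (12.6% and 12.2% of all genes). Ptpn6 and Socs3 had 3.47 ± 0.79 and 2.67 ± 0.61 log2 at 14 days, and Socs1, an inhibitor of JAK kinases, had 0.98 ± 0.51 with overlap.

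Another list of type I interferon-stimulated genes, written without the 38, gave like counts. This list too was chosen with earlier results of these data known and read in the same libraries, so it is not independent support. Of its 50 genes, 38 lay above sham without overlap at 14 days and 37 at 28 days, and the median log2 fold change was 1.13 and 1.01. Slfn2 and Slfn8, of the Schlafen family, had the smallest p of that list, with 3.0 ± 0.40 and 2.44 ± 0.37 log2 at 14 days. Of 24 tested genes known for induction by interferon gamma, 10 lay above sham at 14 days and 17 at 28 days, with medians of 0.87 and 0.95. Ifi47 and Irgm1, GTPases that act on vacuoles of intracellular pathogens, had 1.99 ± 0.26 and 1.16 ± 0.19 log2 at 14 days. Irf1, Cxcl9 and Cxcl10 had 0.76 ± 0.21, 0.99 ± 0.35 and 2.87 ± 0.76 log2 at 14 days and 0.74 ± 0.21, 1.21 ± 0.35 and 1.98 ± 0.74 log2 at 28 days. Of all genes tested, 12.6% lay above sham without overlap at 14 days and 12.2% at 28 days. edgeR called 0 genes of any of these lists at either time.

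Leukocyte markers were higher in the same libraries. The 6 pan-leukocyte markers, Ptprc among them, summed to 134 to 330 CPM in sham. They summed to 604 to 2562 CPM at 14 days and 505 to 1546 CPM at 28 days. All 6 lay above sham without overlap at both times (12.6% and 12.2% of all genes at 14 and 28 days). Of 10 macrophage and monocyte markers 9 did so at each time (sums of 290 to 1348, 2028 to 10978 and 1830 to 2970 CPM). In bulk tissue, fewer or more cells of a type and less or more RNA per cell cannot be told apart. The mean of the 38 genes and the pan-leukocyte mean ordered the Ang II libraries differently. On the log2(CPM + 0.5) scale, pan-leukocyte markers averaged 6.15, 8.12 and 8.41 in the 14-day libraries and 5.97, 7.75 and 6.88 in the 28-day ones. The 38 genes had 5.63, 5.28 and 5.28 at 14 days and 4.82, 4.98 and 5.58 at 28 days. Single genes did follow the pan-leukocyte order. Trim30a, Samhd1 and Epsti1 did so in both Ang II groups (3 of 38). With them Phf11b did at 14 days and Parp14 at 28 days, which makes 4 of 38 at each time. These include the genes with the smallest p at each time and the largest fold change at 28 days. The share of all genes in this order was not determined, so no link to leukocytes is read from these counts. With the pan-leukocyte level as a covariate, the median log2 fold change of the 38 genes was 1.71 at 14 days and 1.38 at 28 days, and edgeR called 0 of them. The pan-leukocyte levels of sham and Ang II libraries did not overlap, so that fit extends beyond the levels that both have in common.

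Markers of other cell types varied too, and their part in the result was not tested. Of all genes tested, 12.6% and 12.2% lay above sham without overlap at 14 and 28 days, and 13.5% and 9.46% below. Plasmacytoid dendritic cells, the main producers of type I interferon, had 10 markers. These summed to 75.5 to 145 CPM in sham, 120 to 301 CPM at 14 days and 150 to 502 CPM at 28 days. At 28 days the sums were 430, 502 and 150 CPM in replicates 1 to 3, higher in the muscle-rich replicates 1 and 2. The part of skeletal muscle in these sums was not tested. Between 28 and 14 days the log2 fold changes of the tested markers ran from -0.81 to 6.50, with a median of 0.26. The sums can therefore rest on few genes and do not measure these cells. Of the 8 plasmacytoid markers tested, 3 lay above sham without overlap at 14 days and 4 at 28 days. Siglech, a surface marker of these cells, had 2.77, 2.58 and 2.94 CPM across the sham libraries, 3.29, 2.81 and 5.16 across the 14-day ones and 0.547, 46.3 and 5.32 across the 28-day ones, and was high in 28-day replicate 2 alone. The 7 B and plasma cell markers summed to 8.45 to 16.8 CPM in sham, 92.8 to 1322 CPM at 14 days and 51.01 to 1296 CPM at 28 days, highest in 14-day replicate 3 and 28-day replicate 2. The 6 NK cell markers summed to 3.09 to 3.93, 10.7 to 50.9 and 6.13 to 27.3 CPM. No pan-leukocyte, macrophage, plasmacytoid dendritic, B, plasma or NK cell marker was at 0 in all libraries of a group. All 8 T cell markers lay above sham without overlap at 14 days (median log2 fold change 4.96) and 5 at 28 days (3.58). The 7 cell cycle genes did so at both times (medians of 2.88 and 2.05), and of 5 tested neutrophil markers 5 did at 14 days and 4 at 28 days. Ly6g, a neutrophil marker, was at 0 in all sham and 14-day libraries. Of 7 brown fat markers 5 lay below sham without overlap at 14 days and 1 at 28 days (medians of -1.84 and -0.69). Smooth muscle markers summed to 10410 to 31911 CPM in sham, 3901 to 17851 CPM at 14 days and 2222 to 6743 CPM at 28 days, with 0 of 8 lower without overlap at 14 days and 8 of 8 at 28 days.

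**Figure D5:**
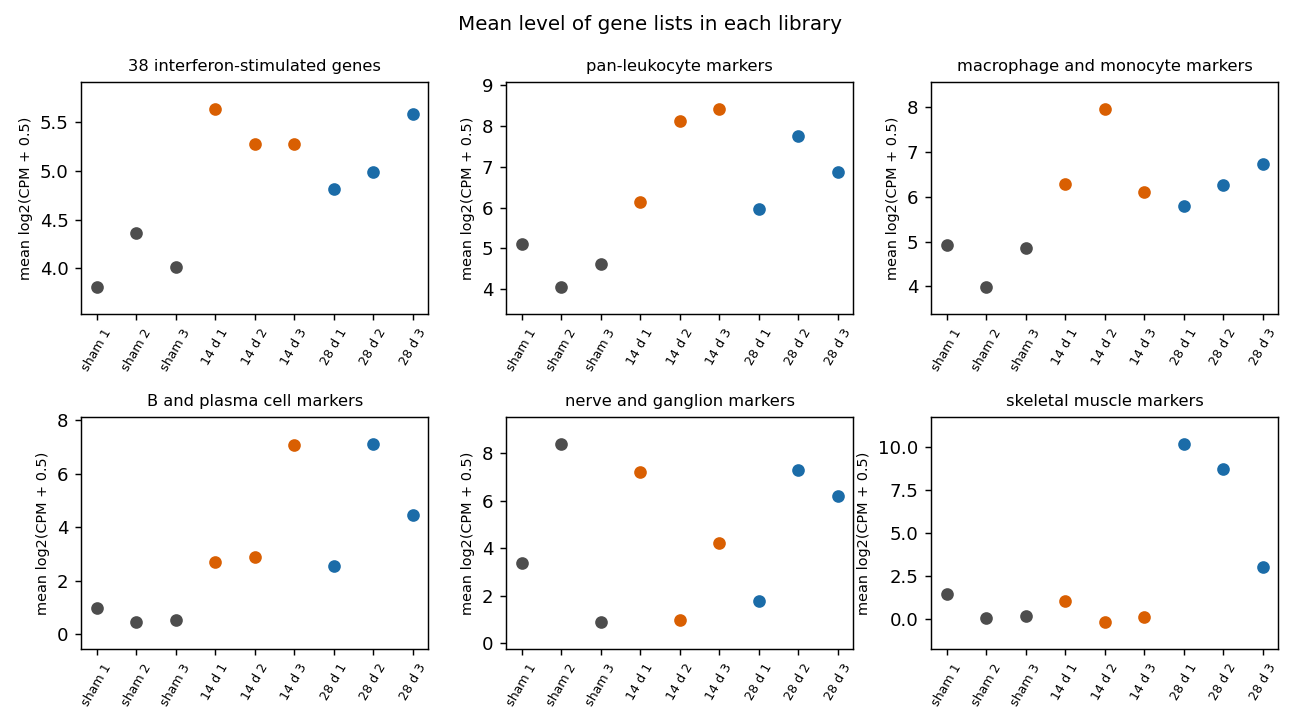
Mean log2(CPM + 0.5) (y axis) of the 38 genes and of 5 marker lists in each of the 9 libraries (x axis), grey for sham, orange for 14 days and blue for 28 days. The 38 genes peak in 14-day replicate 1 and 28-day replicate 3, while pan-leukocyte markers peak in 14-day replicate 3 and 28-day replicate 2.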

How the data were processed

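The deposited values are read counts per gene, per the file headers, 1 file per library. The deposited values were read to be estimated counts, unscaled for depth or length, since some are not whole and the submitters' processing notes name RSEM. Those notes name HISAT2 2.2.1, Bowtie2 2.4.5, RSEM 1.3.1 and GRCm38.p6 without their roles. Strandedness is not given in the sources used here. Between 9.77% and 11.0% of genes in a library had counts that were not whole, and counts were rounded. RefSeq symbols matched 18775 of 18830 identifiers. The members, lists, rule for naming genes (all members by role, with fixed members and those of extreme p or fold in full, and fixed pathway genes) and settings were chosen with earlier results of these data known. edgeR 4.0.16 (filterByExpr, TMM, robust quasi-likelihood fit, 1 coefficient per group, 9 libraries) was the main test, with Benjamini-Hochberg adjustment over all 14741 genes at 0.05. SE is the log2 fold change over the square root of F. DESeq2 1.42.0 and limma 3.58.1 were alternatives, with R 4.3.3. The fits were also run on simulated counts with known fold changes. How many of these were recovered or falsely called is not reported here. The biological coefficient of variation was 51.3%. Exact permutation of 3 against 3 libraries has 0.1 as its smallest two-sided p and was not used. If libraries of a group are not separate mice, p-values measure technical spread. Marker levels use log2(CPM + 0.5). Lengths per kb are exon unions of GENCODE M21. Counts allow for counting error only, with 3 counts as the limit for a count of 0. A pathway gene outside the 38 is not reported here.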

Additional observations from a re-analysis of the deposited data

How the results depend on the processing

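DESeq2 called 1970 genes at 14 days, 970 at 28 days, 118 between the times and 1797 for both times against sham, and 28, 22, 0 and 27 of the 38 genes, where edgeR called 0. The cause was not tested. Fitting only the libraries compared called 1 gene at 14 days, outside the set. The replicate block called 1 gene at 14 days and 1 for both times, and 0 of the 38. The labels state no pairing of the libraries. Same-numbered deviations correlated at -0.509 to 0.635, and not every library correlated best with its own number. These deviations cover all genes tested and also hold differences in tissue, so they cannot tell whether same-numbered libraries were paired. With 1 library left out, edgeR called 0 to 7 genes at 28 days (7 without 28-day replicate 3, 5 without sham replicate 2) and 0 to 5 for both times (5 without sham replicate 2), and 0 of the 38. The median log2 fold change of the 38 then ran from 0.98 to 1.47 at 14 days and from 0.86 to 1.25 at 28 days, and genes above sham without overlap from 30 to 36 (12.6 to 20% of all genes) and from 28 to 36 (12.2 to 19.8%), with 36 at both times without sham replicate 2 (18.4% and 19.8% of all genes). With the pan-leukocyte covariate the median was 1.71 at 14 days and 1.53 for both times. Without the nerve-rich libraries 2 of the 38 lay higher at 28 than at 14 days without overlap (20.6% of all genes) and 8 lower (28.5%), against 0 and 4 with all libraries. Ifi27l2a was the sole gene to change sign against sham: at 28 days it was -0.08 with limma-voom, -0.16 with the block and -0.01 with the covariate, and leaving out 1 library gave -0.55 to 0.40 at 14 days and -0.50 to 0.35 at 28 days. The other genes kept their sign against sham in every setting run. Between 28 and 14 days signs did change, with 9 genes higher in the main fit and 1 to 17 in the other settings. RLE factors, no filter and a filter of 5 CPM in 3 libraries changed no call of edgeR. For both times against sham, the libraries compared are all 9, so that setting has no separate value there.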

Other observations

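Outside the set, the genes whose levels over the 9 libraries were most like the mean of the 38 genes were found by Pearson correlation of log2 CPM with the mean standardised level. Irgm1, C2, Gm12250, Lgals9 and Gzmb came first, at r = 0.983, 0.976, 0.962, 0.945 and 0.943, followed by Ifi205, B2m, Ifi211, Klrg1 and Ddx58, down to 0.930. C2 encodes a component of the complement cascade, Gzmb a protease of cytotoxic lymphocytes, and B2m the light chain of MHC class I. All points share the 9 libraries and the difference between sham and Ang II, so these values are a description. Among the 30 genes with a promoter window, the 13 with an ISRE core had a median log2 fold change of 1.34 at 14 days and 1.17 at 28 days, and the 17 without one had 1.17 and 0.90. Groups did not overlap at 14 days for 10 of the 13 and 13 of the 17, all higher than sham (12.6% of all genes).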
